A study of Mus musculus with 17 samples.

Results

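Mouse embryos at the 8-cell stage were compared with embryos at the 2-cell stage. The comparison used the 4 arrays titled as 8-cell and the 3 titled as 2-cell, 7 of the 17 arrays of a series that also covered oocytes, 1-cell embryos and blastocysts. All 12422 probe sets that are not controls were considered. The filter on dim signals kept 8067 of them, which covered 6044 genes.

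Each sample was read on a single-colour Affymetrix MG-U74Av2 array, where a probe set of short oligonucleotides measures a transcript. Both groups were total RNA of mouse preimplantation embryos, amplified by in vitro transcription in 2 rounds. The labels gave the stage and this protocol, and no strain, age, culture, number of embryos, pooling, hour within the 2-cell stage or batch. Nothing in them said that the samples of a stage were collected separately, so p-values here reflect only how much these samples vary, and that variation may be technical.

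Cleavage divides the mouse egg into ever smaller cells without growth of the embryo. Messenger RNA stored by the oocyte is cleared, the embryo's own genome is switched on in the main at the 2-cell stage, and the embryo moves towards glucose as a fuel. At the 8-cell stage the cells flatten against each other, which is called compaction, and become polarised, so that outer cells can go on to form the trophectoderm and inner cells the pluripotent inner cell mass.

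Arrays of the 8-cell stage correlated with each other at 0.943 to 0.956 across probe sets, those of the 2-cell stage at 0.935 to 0.959, and arrays of different stages at 0.647 to 0.759. The median signal of an array was 36.9 to 46.8 at the 8-cell stage and 46.2 to 49.2 at the 2-cell stage. The 100 brightest probe sets took 26.2% to 31.5% of the summed signal on 8-cell arrays and 19.2% to 19.8% on 2-cell arrays. Every array had the same trimmed mean (150.1), and the control probe sets for hybridisation spikes averaged 4107 to 6200 on 8-cell arrays and 2504 to 4167 on 2-cell arrays, a log2 difference of 0.64. Fewer cells with a transcript and less of it in each cell cannot be told apart in RNA of whole embryos. A change is the 8-cell mean minus the 2-cell mean of log2(signal + 11), with its SE, and the offset makes the changes of dim genes look smaller than they are. A gene was called when its adjusted p in limma's test fell under 0.05, and it is said to have risen or fallen only then.

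The stages differed across much of the measured transcriptome. At the 8-cell stage 2083 of the 8067 probe sets (25.8%) rose and 2281 (28.3%) fell, 54.1% in all, and 1303 (16.2%) and 1475 (18.3%) changed at least 2-fold. With the arrays scaled on the spikes in place of the authors' scaling, the split was 840 higher and 3239 lower, and the median change moved to -0.585, against -0.0595 on the deposited scale. All rises and falls below are therefore relative to the mean signal of an array, and counts on the spike scale are given beside those of each gene list. Per gene, 1584 of 6044 (26.2%) were called higher and 1789 (29.6%) lower, with a median change of -0.07. These shares of all genes are the background for the counts of every gene list below. The far end of the distribution held more falls, with 66 genes at least 8-fold higher and 183 at least 8-fold lower. All 8-cell arrays lay above all 2-cell arrays in 1512 genes (25%) and below them in 1709 (28.3%). A lack of overlap alone therefore does not set a gene apart.

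**Figure D1:**
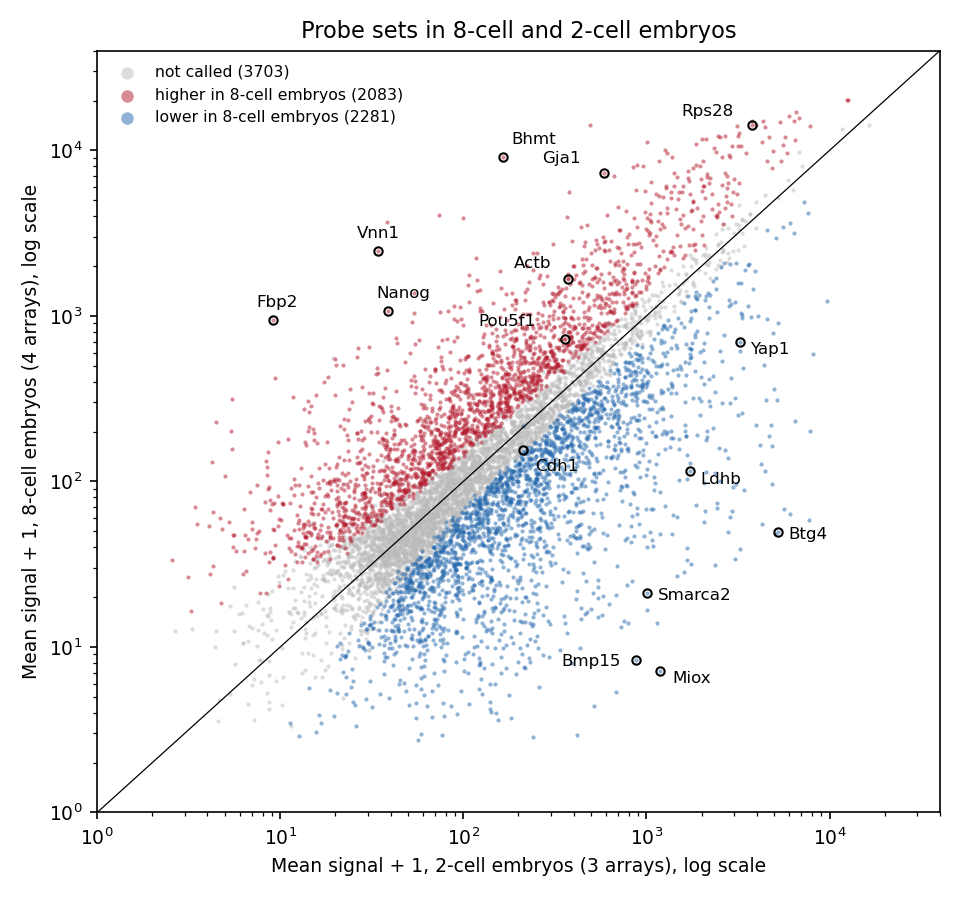
Mean signal + 1 of each tested probe set on the 4 8-cell arrays (vertical axis, log scale) against the 3 2-cell arrays (horizontal axis, log scale), with 2083 called higher in red, 2281 called lower in blue and 3703 not called in grey. Points far from the diagonal include Bhmt, Vnn1, Fbp2 and Nanog above it and Btg4, Bmp15, Miox and Smarca2 below it.

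Genes of the egg's own programme fell in the largest share of any of the 36 gene lists. Of 28 measured genes typical of the oocyte and egg, 24 fell, 1 rose and 3 were not called, with a median change of -2.71, against 29.6% of all genes that fell. On the spike scale 24 fell and 1 rose. The summed signal of the list was 9407 to 11295 per 8-cell array, against 38056 to 53931 per 2-cell array.

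Egg coat genes were among them. Zp2, a protein of the zona pellucida that sperm bind, had signals of 28.3, 7.1, 2.3 and 30.6 on the 8-cell arrays, against 625, 492 and 758 on the 2-cell arrays. Every 8-cell array lay below every 2-cell array (log2 change -4.64 ± 0.29, adjusted p = 1.93e-11). Zp3, another protein of the coat, had 120.2, 62.2, 74.2 and 74.4 on the 8-cell arrays, against 477, 410.0 and 913 on the 2-cell arrays, again with no overlap, and fell by 2.65 ± 0.22.

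Gdf9 and Bmp15, secreted factors of the oocyte, fell as well. Gdf9, a growth factor that oocytes send to their follicle cells, had signals of 211, 175, 155 and 207 on the 8-cell arrays, against 1883, 1670.5 and 1395 on the 2-cell arrays. The stages did not overlap, and it fell by 3.07 ± 0.15. Its partner Bmp15 was at 8.8, 9.4, 6.0 and 5.1 on the 8-cell arrays, against 1308, 880.2 and 436 on the 2-cell arrays. Kit, the receptor tyrosine kinase that oocytes carry, had 20, 29.2, 19.6 and 23.8 on the 8-cell arrays, against 234, 180.3 and 181 on the 2-cell arrays, and fell by 2.62 ± 0.18.

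Regulators inside the egg moved with them. Bcl2l10, a Bcl2 family protein abundant in eggs, had signals of 126, 163, 81.7 and 83.9 on the 8-cell arrays, against 6136, 4337 and 2898 on the 2-cell arrays. Its other tested probe set was not called (0.36 ± 0.37, adjusted p = 0.439). Tcl1, a coactivator of the kinase AKT, had 84.4, 74.6, 31 and 48.5 on the 8-cell arrays, against 3981, 2931 and 1673 on the 2-cell arrays, with a change of -5.33 ± 0.26. H1f8, the linker histone of oocytes, had 76.4, 57, 51.9 and 47.2 on the 8-cell arrays, against 306, 258 and 370.4 on the 2-cell arrays. It fell by 2.22 ± 0.22 between these stages, and oocytes averaged 4592.

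The exception was Cd9, a membrane protein that eggs need for fusion with sperm, with signals of 1760.4, 1912, 2114 and 2184 on the 8-cell arrays, against 425, 381 and 376 on the 2-cell arrays. It rose by 2.30 ± 0.20, and blastocysts stood at 2009. Dppa3, which protects maternal DNA methylation in the zygote and is also a mark of pluripotent cells, had 7029.6, 7577, 6131 and 5693 on the 8-cell arrays, against 6192, 5583 and 6021 on the 2-cell arrays. Those arrays overlapped and the gene was not called (0.15 ± 0.16, adjusted p = 0.469), but with quantile normalization it was called lower (-0.73). The oocyte transcription factors Figla and Nobox were dim on both sets of arrays (18 to 31.2 and 1.7 to 60.1 at the 8-cell stage, 15.7 to 43 and 7.0 to 8.5 at the 2-cell stage) and were not called either.

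Promoters of the pair of egg genes with the largest falls are shown because they hold a short sequence found in many promoters of the list. The letters CACCTG, a form of the E-box bound by basic helix-loop-helix factors, were searched on both strands in the 250 bases before the start site in RefSeq's table (GRCm38.p6). They occurred in 12 of 21 egg genes with a promoter in the table (57.1%), in 18.7% of the tested genes and in 19.4% of all genes. Of pluripotency genes, a list that mainly rose, 7 of 17 held them (41.2%). This motif and the others below were picked from 7 short motifs after their counts were seen, and a match is a description, not a binding site. In Btg4 it starts 70 bases before the start site, and in Tcl1b1 it occurs 2 times, 88 and 63 bases before it. Capitals mark the matches on either strand in these promoters, chr9:51115751-51116000 and chr12:105159454-105159703, both on the plus strand.
Btg4: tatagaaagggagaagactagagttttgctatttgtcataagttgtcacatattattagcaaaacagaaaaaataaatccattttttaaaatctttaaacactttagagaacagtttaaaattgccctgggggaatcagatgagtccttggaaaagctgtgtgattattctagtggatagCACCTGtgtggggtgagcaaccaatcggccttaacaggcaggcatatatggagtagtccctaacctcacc
Tcl1b1: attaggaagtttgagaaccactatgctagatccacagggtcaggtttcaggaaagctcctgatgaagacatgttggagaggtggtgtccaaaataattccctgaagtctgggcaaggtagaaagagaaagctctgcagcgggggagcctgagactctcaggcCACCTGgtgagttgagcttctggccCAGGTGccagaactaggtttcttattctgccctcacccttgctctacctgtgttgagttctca

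Btg4 itself belongs to the machinery that shortens the poly(A) tails of maternal messages. Its signals were 69.1, 42.9, 35.2 and 45.6 on the 8-cell arrays, against 6207, 5691 and 3793 on the 2-cell arrays. Tcl1b1, a relative of Tcl1 expressed in oocytes, had 54.5, 58.2, 37.8 and 37.7 on the 8-cell arrays, against 5849, 5133 and 4040.2 on the 2-cell arrays. Neither gene's arrays overlapped between the stages, and the changes were -6.47 ± 0.21 and -6.44 ± 0.16. Of 34 genes of mRNA decay and storage, 16 fell, 11 rose and 7 were not called (median -0.43), with 17 lower and 3 higher on the spike scale.

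Deadenylation genes were among the falls of that list. Cnot7, a catalytic deadenylase of the CCR4-NOT complex, had 57.8, 81, 70.5 and 79.9 on the 8-cell arrays, against 1019, 879.7 and 538 on the 2-cell arrays, and fell by 3.27 ± 0.20 (a second probe set gave -0.59 ± 0.21 and was also called). Tob1, which recruits that complex, fell by 2.62 ± 0.27. Dcp1a, a decapping cofactor, fell by 2.05 ± 0.17. Angel2, a gene outside the list whose protein resembles the Ccr4 deadenylases, had 59.1, 48, 46.3 and 41 on the 8-cell arrays, against 3212, 2915 and 2212 on the 2-cell arrays, one of the 20 largest falls.

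Among the rises of that list were Btg1, a relative of Btg4, other decay complexes and proteins that protect mRNA. Lsm4, part of the ring that binds the ends of oligoadenylated RNA, had 806, 759, 809 and 653 on the 8-cell arrays, against 104, 142 and 245 on the 2-cell arrays, and rose by 2.21 ± 0.22. Exosc7, a subunit of the RNA exosome, rose by 2.19 ± 0.19. The mRNA-stabilising protein Elavl1 rose by 1.54 ± 0.23. Pabpc1, the poly(A)-binding protein, rose by 1.35 ± 0.21, a call that the spike scaling ended (0.70).

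Transcripts that peak at the 2-cell stage made up a separate set of falls. D13Ertd608e had signals of 75.2, 54.8, 55.6 and 31 on the 8-cell arrays, against 4818, 4633 and 3444 on the 2-cell arrays. Its signals were also low before this stage, at 64.5 to 159 in oocytes and 43.1 to 78.7 in 1-cell embryos. Tcstv3, a gene of a family expressed in 2-cell embryos, had 45.6, 57.5, 56.3 and 30.1 on the 8-cell arrays, against 1747, 1466 and 904 on the 2-cell arrays. It averaged 177 in oocytes and 171 in 1-cell embryos, and fell by 4.54 ± 0.25. The probe sets of Tcstv3, BC147527 (-5.32 ± 0.27) and Gm20767 (-5.25 ± 0.29) share probes with other transcripts by their names, so these values may not be separate.

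Other genes had the same shape. Sowaha, an ankyrin repeat gene, had 5.2, 17, 8.1 and 21.2 on the 8-cell arrays, against 875, 782 and 727 on the 2-cell arrays, with a change of -5.13 ± 0.28, and averaged 6.03 in oocytes and 5.0 in 1-cell embryos. Usp17la, a deubiquitinase gene, had 6.2, 16.7, 14.6 and 5.0 on the 8-cell arrays, against 155, 119 and 66.7 on the 2-cell arrays, and fell by 2.50 ± 0.33. Hspa1a, an inducible heat shock protein, had 239.9, 579, 142 and 310.1 on the 8-cell arrays, against 1071, 1410.1 and 733 on the 2-cell arrays, and fell by 1.84 ± 0.39. No 8-cell array reached a 2-cell array for any of the 3, which was also so for 28.3% of all genes.

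Other early embryo genes were higher still at the 8-cell stage. Of 10 measured genes of the transient 2-cell list, 4 fell, 5 rose and 1 was not called (4 lower and 3 higher on the spike scale). Arg2, among the 4 falls, averaged 1606 in oocytes, 937 in 1-cell embryos and 507 in 2-cell embryos. It therefore had no peak at the 2-cell stage in these data. Calcoco2, an autophagy receptor, had 4203, 4859.6, 3622 and 3649.7 on the 8-cell arrays, against 386, 622 and 821 on the 2-cell arrays. It rose by 2.78 ± 0.20, and 1-cell embryos averaged 2.07. The homeobox gene Crxos rose by 2.14 ± 0.22 and the initiation factor Eif1a by 1.77 ± 0.19. Pramel7, a leucine-rich repeat gene of the early embryo, rose by 1.11 ± 0.32, a call that ended with the spike scaling (0.46), quantile normalization (0.44) and an offset of 1 (1.11, adjusted p = 0.0645).

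Several of the largest rises were in metabolic genes. Bhmt, which remethylates homocysteine to methionine with betaine, had 9484, 9312, 9895 and 7908 on the 8-cell arrays, against 61.3, 128 and 302 on the 2-cell arrays. Every 8-cell array was far above every 2-cell array, with a change of 5.96 ± 0.33 (adjusted p = 1.93e-12). The other tested probe set of the gene also rose (1.82 ± 0.38). Vnn1, a pantetheinase that releases cysteamine in the recycling of coenzyme A, had 2223, 2406, 3082 and 2200.2 on the 8-cell arrays, against 40.8, 24.5 and 34 on the 2-cell arrays. All 4 of its 8-cell signals were far above those of the 2-cell, oocyte (30 to 41.7) and 1-cell (20.5 to 38.1) arrays, and the change was 5.82 ± 0.20.

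Genes that were dim at the 2-cell stage and bright at the 8-cell stage were counted on the raw signals. They had every 2-cell array under 41.1, the median of all values, and every 8-cell array above 152.5, the 75th percentile, or the reverse. By this rule 35 genes (0.579%) were switched on and 65 (1.08%) were switched off, as were 0.558% and 0.979% of probe sets. With the spike scaling 12 were switched on, and with the 25th percentile as the lower bound 1 was switched on and 7 were switched off.

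Genes switched on had mixed roles. Sfn, the scaffold protein stratifin of epithelial cells, had 539.9, 469, 619.5 and 611 on the 8-cell arrays, against 32.2, 11.2 and 32.4 on the 2-cell arrays. Casp6, an executioner caspase, had 437, 425, 517 and 646 on the 8-cell arrays, against 24, 17.2 and 22.2 on the 2-cell arrays, and Acadl, which starts the oxidation of long-chain fatty acids, had 339, 362, 510.0 and 373 on the 8-cell arrays, against 9.9, 24.6 and 14.3 on the 2-cell arrays. Their changes were 4.03 ± 0.25, 4.00 ± 0.21 and 3.92 ± 0.24. Others were Smpdl3a, a phosphodiesterase related to acid sphingomyelinase (4.10 ± 0.24), and the Rag GTPase Rragd, which acts upstream of mTORC1 (3.37 ± 0.28). Further ones were Cpeb2, a regulator of mRNA translation (3.48 ± 0.26), and the GTPase Rap1a, which acts in cell adhesion (3.44 ± 0.19). The other tested probe set of Rap1a averaged 125 on 8-cell and 75.4 on 2-cell arrays, with overlap. That probe set also rose (0.69 ± 0.22), but was not switched on by the count above. Xist, the RNA that coats the inactive X chromosome, had 533, 614, 483 and 264 on the 8-cell arrays, against 36.5, 35.6 and 40.3 on the 2-cell arrays, and rose by 3.26 ± 0.32.

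The largest falls also included genes outside the egg list, some of them bright in oocytes too. Miox, which opens the ring of inositol, had 10.8, 6.6, 3.2 and 4.2 on the 8-cell arrays, against 1376, 1202 and 955 on the 2-cell arrays, and Cdo1, which oxidises cysteine, had 35.3, 35.3, 19.2 and 31.1 on the 8-cell arrays, against 3327, 2344 and 1412 on the 2-cell arrays. Their changes were -6.12 ± 0.19 and -5.78 ± 0.25, and neither overlapped. Mllt3, a reader of acylated histones in elongation complexes, had 75.7, 106, 64.1 and 134 on the 8-cell arrays, against 4424, 5164 and 4975 on the 2-cell arrays. It fell by 5.56 ± 0.21. The phospholipase Pld1 fell by 5.51 ± 0.21 and the microtubule-binding gene Slain1 by 5.46 ± 0.21. C86187, which fell by 6.84 ± 0.18, had the largest change of all genes, at 41.2 to 76.1 on 8-cell and 7045 to 8194 on 2-cell arrays. It averaged 6071 in oocytes and 13063 in 1-cell embryos, and Cdo1 averaged 1839 and 2944.

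**Figure D2:**
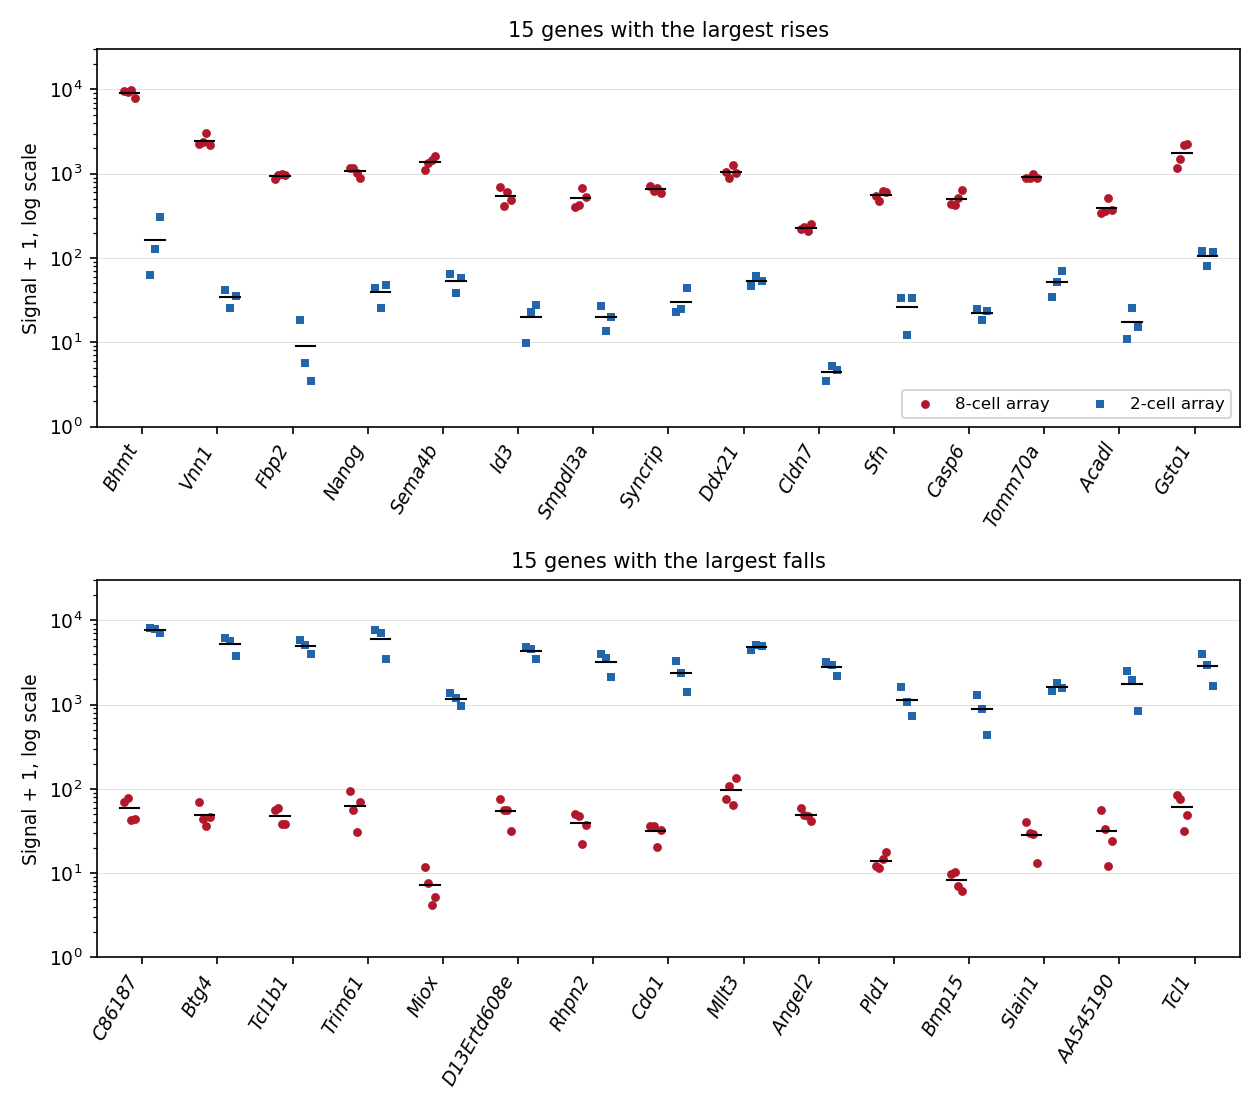
Signal + 1 (log scale) on each array for the 15 genes with the largest rises (upper panel) and the 15 with the largest falls (lower panel), with 8-cell arrays as red circles, 2-cell arrays as blue squares and the group mean as a bar. In no gene shown do the 4 8-cell arrays overlap with the 3 2-cell arrays, since genes were drawn from those without overlap.

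Pluripotency genes rose in the main. Of 28 measured, 16 rose, 4 fell and 8 were not called (median 1.00), against 26.2% of all genes that rose, and on the spike scale 13 rose and 6 fell. Nanog, a homeodomain factor of the inner cell mass, had signals of 1178, 1174, 1029 and 901 on the 8-cell arrays, against 42.5, 24.5 and 47 on the 2-cell arrays. The 4 8-cell arrays were close to each other and the 2-cell arrays were at or near the median of all values, 41.1. The change was 4.49 ± 0.19 (adjusted p = 5.68e-14), and blastocysts averaged 1726.

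Its promoter is shown because it holds letters of the octamer that POU factors such as the product of Pou5f1 bind. The letters TTTGCAT, searched on both strands in the 250 bases before the start, were found in 3 of 17 pluripotency genes with a promoter in RefSeq's table (17.6%), 3.9% of tested genes and 4.65% of all genes. In Nanog (chr6:122707315-122707564, plus strand, GRCm38.p6) the match in capitals starts 151 bases before the start site.
Nanog: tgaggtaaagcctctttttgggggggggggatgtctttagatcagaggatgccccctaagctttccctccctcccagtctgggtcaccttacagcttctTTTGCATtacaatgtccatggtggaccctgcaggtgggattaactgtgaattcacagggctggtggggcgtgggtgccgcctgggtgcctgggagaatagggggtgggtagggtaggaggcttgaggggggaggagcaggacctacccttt

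Transcription factors of the naive pluripotent state were among the rises. Tfcp2l1 had 524, 559.7, 829.6 and 901 on the 8-cell arrays, against 77.8, 108 and 77.4 on the 2-cell arrays. Klf2 had 137, 119, 129 and 45.8 on the 8-cell arrays, against 7.5, 8.7 and 6.2 on the 2-cell arrays, with the fourth 8-cell array apart from the other 3. Their changes were 2.83 ± 0.32 and 2.59 ± 0.31. Klf4 and Klf5, of the same zinc finger family and named here after their values were seen, changed by 1.63 ± 0.18 and 2.11 ± 0.32. Zfp42 (Rex1), also named after its value was seen, changed by 1.68 ± 0.23. The nuclear receptor Nr5a2 had 512, 632, 642 and 804 on the 8-cell arrays, against 86.4, 135 and 188 on the 2-cell arrays, and rose by 2.20 ± 0.22.

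Pou5f1 encodes OCT4 and was bright at both stages. It had 651, 795, 739 and 717 on the 8-cell arrays, against 459, 330.0 and 290.1 on the 2-cell arrays. The arrays did not overlap, but the change was small at 1.01 ± 0.20, and on the spike scale it was 0.37 and not called. Dppa5a, which binds RNA in pluripotent cells, had 8568, 7773, 7507 and 6119.6 on the 8-cell arrays, against 1261, 1577 and 2249 on the 2-cell arrays, and rose by 2.17 ± 0.18. Dppa4, another gene of pluripotent cells, had 2818, 3043, 3071 and 3721 on the 8-cell arrays, against 2526, 2828 and 3632 on the 2-cell arrays, with overlap and no call. Fbxo15, a target of OCT4 and SOX2, was at 14087 to 18376 on 8-cell arrays and 5096 to 7649 on 2-cell arrays, and rose by 1.43 ± 0.18.

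Sox2, Fgf4 and Il6st were among the 4 falls of this list. Sox2, the partner of OCT4, had 58.1, 71.1, 88.4 and 92.3 on the 8-cell arrays, against 188, 129 and 75.6 on the 2-cell arrays. The lowest 2-cell array lay inside the range of the 8-cell arrays, and the call (change -0.62 ± 0.24, adjusted p = 0.0333) was lost without 2-cell array 1 (-0.33) or 2 (-0.59), without 8-cell array 1 (-0.50) or 2 (-0.59), with quantile normalization (-0.54), with median centring (-0.48) and in a fit of the 7 arrays alone. Fgf4, the growth factor that inner cells send, fell by 0.67 ± 0.17. Il6st, the receptor chain gp130 that signals for LIF, had 4.9, 26, 31.6 and 12.4 on the 8-cell arrays, against 213, 152 and 172 on the 2-cell arrays, and fell by 2.77 ± 0.26. Tdgf1, a coreceptor of the Nodal pathway, was among the rises, by 2.29 ± 0.27.

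Genes of the trophectoderm and the Hippo pathway rose more often than they fell. The pathway reads cell contact and holds back the coactivator YAP1 in inner cells. Of 31 measured, 13 rose (41.9%, against 26.2% of all genes), 3 fell (9.68%, against 29.6%) and 15 were not called. On the spike scale 8 were higher and 5 lower, and the median change was -0.07, against 0.51 on the deposited scale. Upstream, Amot, a junction protein that activates the pathway, had 447, 671, 876 and 924 on the 8-cell arrays, against 93.2, 70.5 and 77.5 on the 2-cell arrays. The kinase gene Lats2, which acts on YAP1, had 267, 371, 368 and 431 on the 8-cell arrays, against 54.7, 58.5 and 62.8 on the 2-cell arrays. Both were clear of the 2-cell arrays and rose by 2.97 ± 0.28 and 2.39 ± 0.22.

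Yap1 itself fell by 2.19 ± 0.14, with 714, 682, 716 and 683 on the 8-cell arrays, against 3176, 3107 and 3442 on the 2-cell arrays. The 8-cell arrays lay close together and far under the 2-cell arrays. Tead4, the DNA-binding partner of YAP1 that the trophectoderm requires, had 620.5, 559, 427 and 554 on the 8-cell arrays, against 283, 273 and 319 on the 2-cell arrays, a rise of 0.85 ± 0.15 that the spike scaling ended (0.22). Its other 3 probe sets were also called higher (2.35 ± 0.19, 1.66 ± 0.35 and 0.75 ± 0.28). The transcription factor Tfap2c rose by 2.14 ± 0.17. Gata3, another trophectoderm factor, had 84.5, 151, 144 and 104 on the 8-cell arrays, against 121, 75.5 and 53.8 on the 2-cell arrays, with overlap and no call (0.51 ± 0.22, adjusted p = 0.0599), though it was called higher with quantile normalization (0.64), median centring (0.65), a stricter filter (0.51) and array weights (0.59), and without 2-cell array 1 (0.78) or 8-cell array 1 (0.65). Cdx2 was left out by the filter on dim signals.

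Krt8 and Krt18, keratins of the future trophectoderm, rose. Krt8 had 125, 375, 262 and 421 on the 8-cell arrays, against 29.8, 38 and 24.6 on the 2-cell arrays and Krt18 had 116, 214, 143 and 214 on the 8-cell arrays, against 27.7, 39.9 and 32.7 on the 2-cell arrays. The first 8-cell array was the lowest of its group for both genes. Their changes were 2.76 ± 0.40 and 2.01 ± 0.23, and blastocysts averaged 3655 and 3279. Id3, an inhibitor of basic helix-loop-helix factors and a target of BMP signalling, had 687, 409, 609 and 483 on the 8-cell arrays, against 8.8, 21.7 and 26.5 on the 2-cell arrays. It was switched on by the count above and rose by 4.24 ± 0.29, whereas Id2 had 44.2, 72.7, 309.8 and 35.3 on the 8-cell arrays, against 238, 210.3 and 165 on the 2-cell arrays, with the third 8-cell array above all 2-cell values and the other 3 below them. The call of Id2 (-1.23 ± 0.41, adjusted p = 0.016) was lost without 8-cell array 1 (-0.99) or 4 (-0.90), without 2-cell array 1 (-1.12) and in a fit of the 7 arrays alone.

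Of 16 primitive endoderm genes, 4 rose, 3 fell and 9 were not called (2 higher and 6 lower on the spike scale), while 55.8% of all genes were called. Gata6, the factor that sets this lineage against Nanog, had 532, 370.0, 422 and 401 on the 8-cell arrays, against 54.4, 68.8 and 34.7 on the 2-cell arrays. It rose by 2.82 ± 0.20, on the same 8-cell arrays on which Nanog was higher. Nid1, a basement membrane protein, rose by 1.68 ± 0.29.

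**Figure D3:**
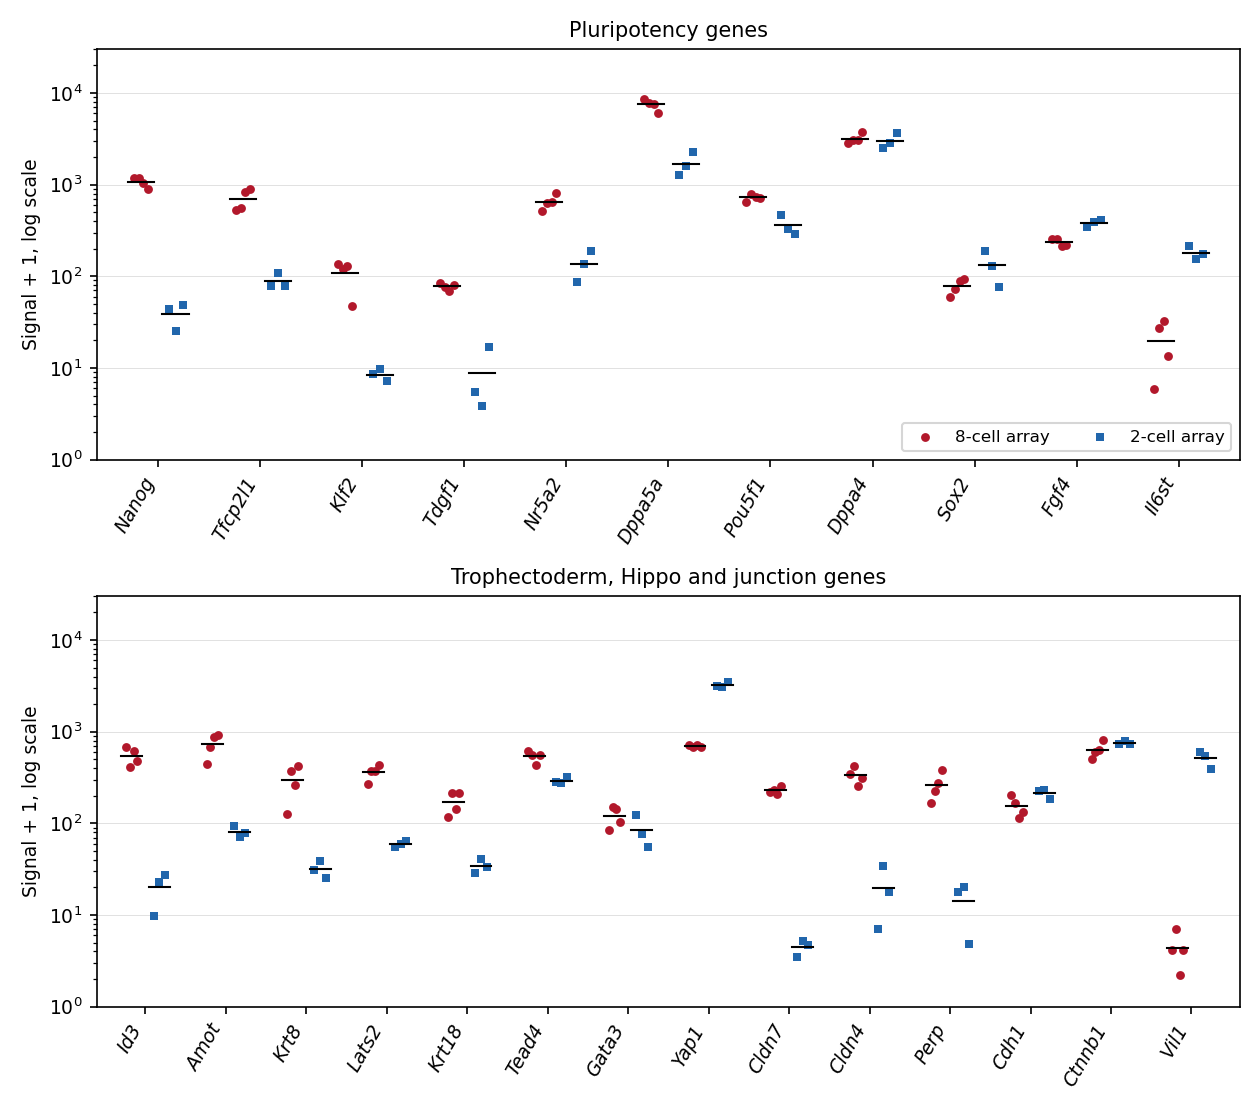
Signal + 1 (log scale) on each array for pluripotency genes (upper panel) and for trophectoderm, Hippo and junction genes (lower panel), with 8-cell arrays as red circles, 2-cell arrays as blue squares and the group mean as a bar. Nanog, Id3, Cldn7 and Perp lie above their 2-cell arrays by more than the height of either group, Yap1 and Vil1 lie below, and Dppa4, Cdh1 and Ctnnb1 overlap.

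Genes of cell contacts and polarity were called in shares near those of all genes. Of 47 genes of adherens and tight junctions, desmosomes and polarity, 12 rose, 12 fell (25.5% each, against 26.2% and 29.6% of all genes) and 23 were not called (6 higher and 19 lower on the spike scale). Cdh1, the E-cadherin that holds compacting cells together, had 202, 168, 114 and 133 on the 8-cell arrays, against 222, 229.5 and 182 on the 2-cell arrays. Those arrays overlapped and the gene was not called (-0.45 ± 0.21, adjusted p = 0.071), although it was called lower on the spike scale (-1.05), with array weights (-0.56) and without 8-cell array 1 (-0.59). Its cytoplasmic partner Ctnnb1, or beta-catenin, was not called (-0.26 ± 0.15), and was called lower on the spike scale (-0.89) and without 8-cell array 4 (-0.38).

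The rises of this list included claudins. Cldn4, a claudin of tight junctions, had 344, 418, 252 and 315 on the 8-cell arrays, against 6.0, 33.5 and 16.9 on the 2-cell arrays. Perp, a membrane protein that stabilises desmosomes, had 167, 224, 272 and 379.8 on the 8-cell arrays, against 16.8, 19.2 and 3.8 on the 2-cell arrays. Both were switched on by the count above, with changes of 3.61 ± 0.26 and 3.49 ± 0.36. Cldn7 rose by 4.04 ± 0.20 and the gap junction protein gene Gja1 by 3.76 ± 0.36, both read by probe sets that share probes with other transcripts. F11r, the junctional adhesion molecule JAM-A, rose by 1.84 ± 0.22.

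The falls of this list included Vil1, Cdh2 and Rdx. Vil1, the villin that bundles actin in microvilli, had 3.2, 6.0, 1.2 and 3.2 on the 8-cell arrays, against 607, 548 and 393 on the 2-cell arrays. It fell by 5.18 ± 0.20, and averaged 423 in oocytes and 0.933 in blastocysts. Cdh2, or N-cadherin, had 2.8, 2.2, 18 and 13.3 on the 8-cell arrays, against 193, 97.2 and 59.6 on the 2-cell arrays, and fell by 2.62 ± 0.32. Rdx, radixin, which ties membranes to actin, fell by 2.20 ± 0.21.

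Actb and Actg1, the cytoplasmic actins, rose. Actb had 1548, 1991, 1642 and 1525 on the 8-cell arrays, against 436, 314 and 362 on the 2-cell arrays, and Actg1 had 3604, 4460.4, 4509 and 4565 on the 8-cell arrays, against 795, 666 and 843 on the 2-cell arrays. The first 8-cell array was below the other 3 for Actg1, and neither gene overlapped. They rose by 2.15 ± 0.17 and 2.46 ± 0.15, and the control probe sets for both ends of the beta-actin message, which were not tested, differed by 2.15 at the 3′ end and 2.18 at the 5′ end. Tropomyosin Tpm1 rose by 2.12 ± 0.22, while profilin Pfn2 fell by 2.32 ± 0.30, the actin disassembly factor Wdr1 by 1.63 ± 0.23 and the Arp2/3 subunit Actr3 by 1.32 ± 0.16. Of 53 genes of the actin cytoskeleton 20 rose and 9 fell (7 higher and 19 lower on the spike scale). The sodium pump and water channel list, which serves the later cavity, had 5 measured genes, of which 1 fell and 4 were not called (1 lower on the spike scale).

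Ribosomal protein genes had the largest share of rises of any of the 36 lists. Of 27 cytosolic ribosomal proteins, 24 rose and 3 were not called, with a median change of 1.91 (18 higher and 1 lower on the spike scale, median 1.26). Their summed signal was 149725 to 219988 per 8-cell array, against 53867 to 72239 per 2-cell array. Rps19, of the small subunit, had 1972, 5283, 3570.5 and 4952 on the 8-cell arrays, against 269, 232 and 599.7 on the 2-cell arrays, and Rpl7a, of the large subunit, had 8984, 9728, 8029 and 5230.4 on the 8-cell arrays, against 844, 874 and 1166 on the 2-cell arrays. They rose by 3.42 ± 0.34 and 3.02 ± 0.21. Ribosomal protein genes have many near-identical copies in the genome, so a probe set may read more than 1 of them.

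Rps24 had 25663, 22302, 17252 and 15717 on the 8-cell arrays, against 10156, 12643 and 14340.3 on the 2-cell arrays, a gap smaller than those above. Its rise of 0.69 ± 0.18 was not called with the spike scaling (0.05) or quantile normalization (0.20). The control probe sets for 18S ribosomal RNA, which were not tested, averaged 1853, 1923, 1794 and 682 on the 8-cell arrays, against 1373, 1205 and 1302 on the 2-cell arrays. The fourth 8-cell array was below all 2-cell arrays and the other 3 were above them.

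A promoter of this list and one of the proteasome are shown because both hold the core letters bound by ETS family factors, CCGGAAG. In the 250 bases before the start, on both strands, they occurred in 8 of 23 ribosomal protein genes with a promoter in the table (34.8%), in 12 of 35 proteasome genes (34.3%) and in 12 of 33 splicing genes (36.4%). Genes of oxidative phosphorylation, most of which rose, held them in 23.1% of cases, and ubiquitin genes, which fell more often than they rose, in 23.9%. The share was 16.3% of tested genes, 7.83% of all genes, 19.5% of genes called higher and 16.4% of genes called lower. None of the 21 egg genes held it in that window, and neither did any of the 17 pluripotency genes, a list that mainly rose. Rps18 (chr17:33955666-33955915, minus strand) had 2 matches, 157 and 75 bases before the start site, and Psma6 (chr12:55398575-55398824, plus strand) had 1, 132 bases before it (RefSeq, GRCm38.p6).
Rps18: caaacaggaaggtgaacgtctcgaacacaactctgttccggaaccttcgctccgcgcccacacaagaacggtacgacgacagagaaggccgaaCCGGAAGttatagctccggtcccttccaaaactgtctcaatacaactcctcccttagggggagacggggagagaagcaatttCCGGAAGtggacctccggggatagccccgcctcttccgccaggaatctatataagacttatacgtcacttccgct
Psma6: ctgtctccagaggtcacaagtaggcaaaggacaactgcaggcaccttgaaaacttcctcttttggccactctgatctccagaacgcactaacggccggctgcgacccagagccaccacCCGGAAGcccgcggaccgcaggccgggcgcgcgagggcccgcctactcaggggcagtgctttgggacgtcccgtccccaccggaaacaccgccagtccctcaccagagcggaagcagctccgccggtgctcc

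Rps18 had signals of 10362, 10961, 9839 and 7377 on the 8-cell arrays, against 847, 1012 and 2037 on the 2-cell arrays. Psma6, a subunit of the proteasome core that was named after its value was seen, had 5209, 5839, 5012 and 4959.9 on the 8-cell arrays, against 922, 952 and 1802 on the 2-cell arrays. In both genes the lowest 8-cell array was well above the highest 2-cell array, and the changes were 2.97 ± 0.24 and 2.16 ± 0.19.

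Other genes of translation were called higher more often than lower. Of 45 initiation and elongation factors, 27 rose and 4 fell (11 higher and 8 lower on the spike scale). Eif3d, a subunit of the initiation complex eIF3, had 2092, 1438, 2140.5 and 2286 on the 8-cell arrays, against 149, 211 and 308 on the 2-cell arrays, and rose by 3.13 ± 0.20. Eif4ebp1, a brake on cap-dependent initiation that mTORC1 releases, rose by 2.55 ± 0.27. The falls were Eif2ak4 (GCN2, -2.71 ± 0.31) and Eif2ak3 (PERK, -1.05 ± 0.24), kinases that lower initiation under stress, Eef2k, which slows elongation (-1.79 ± 0.32), and Eif1b, a paralogue of the start codon factor eIF1 (-1.66 ± 0.17).

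Enzymes that charge tRNA rose in 15 of 20 cases and fell in 3 (6 higher and 4 lower on the spike scale). Aimp1, a scaffold of the multisynthetase complex, had 582, 575, 809.8 and 734 on the 8-cell arrays, against 27.8, 46.8 and 86.3 on the 2-cell arrays. Iars, the isoleucine enzyme, had 252, 302, 342 and 318 on the 8-cell arrays, against 1229, 1092 and 998 on the 2-cell arrays. The changes were 3.50 ± 0.24 and -1.83 ± 0.15. In the nucleolus, where ribosomes are assembled, 23 of 42 genes rose and 4 fell (8 higher and 6 lower on the spike scale). Ddx21, an RNA helicase of that compartment, had 1039, 881, 1252 and 1016 on the 8-cell arrays, against 45.8, 59.5 and 52.1 on the 2-cell arrays, and rose by 4.05 ± 0.18, while nucleolin (Ncl) rose by 1.78 ± 0.15 and nucleophosmin (Npm1) by 1.38 ± 0.15.

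RNA processing genes and transcription genes had opposite counts. Of 36 splicing genes 23 rose and 2 fell (median 0.74), but of 40 genes of RNA polymerase II and its general factors 7 rose and 17 fell (median -0.32). On the spike scale 6 splicing genes were higher and 5 lower, and 26 polymerase genes were lower. Srsf3, an SR protein that guides splice site choice, had 1995, 2236, 1426 and 1789.9 on the 8-cell arrays, against 188, 152 and 135 on the 2-cell arrays. Med28, a Mediator subunit, had 469, 426, 297 and 297 on the 8-cell arrays, against 1811, 1335 and 983 on the 2-cell arrays, and the elongation factor Tcea1 had 327, 384, 431 and 420.5 on the 8-cell arrays, against 1548, 1416 and 1132 on the 2-cell arrays. Their changes were 3.46 ± 0.17, -1.84 ± 0.19 and -1.77 ± 0.16, with no overlap in any.

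**Figure D4:**
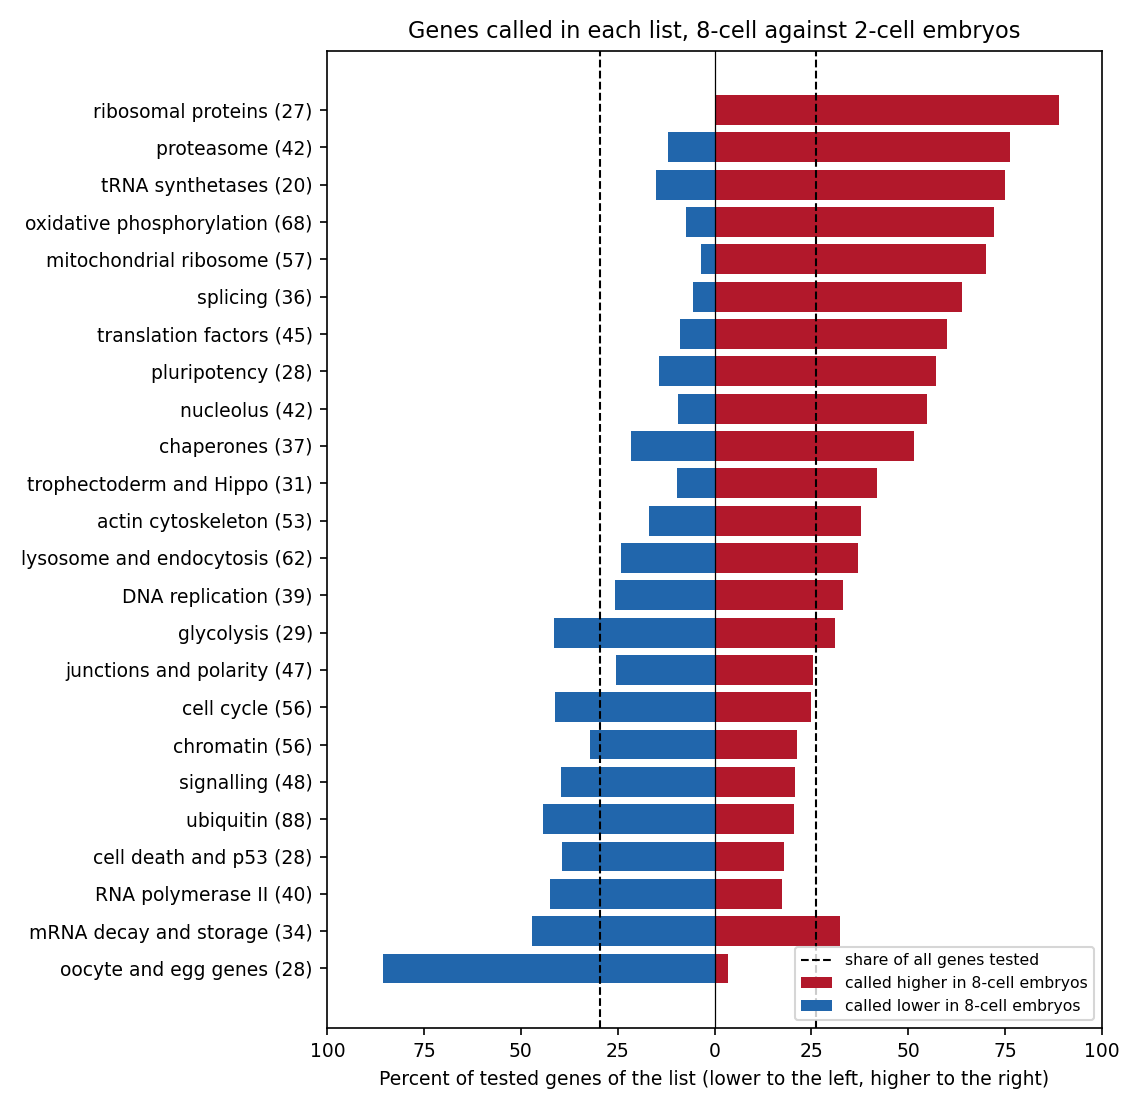
Percent of the tested genes of each list that were called higher (red, to the right) or lower (blue, to the left) at the 8-cell stage, with the number tested in brackets and dashed lines at the shares of all genes, 26.2% and 29.6%. Ribosomal proteins (24 of 27 higher) and egg genes (24 of 28 lower) are the far ends.

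Many mitochondrial genes rose. Of 68 genes of the respiratory chain and ATP synthase, 49 rose, 5 fell and 14 were not called (median 1.08, and 25 higher and 9 lower on the spike scale). Ndufa5, of complex I, had 1352, 1564, 1672 and 1086 on the 8-cell arrays, against 101, 85.3 and 167 on the 2-cell arrays, and Uqcrb, of complex III, had 2109, 2499, 2315 and 2616 on the 8-cell arrays, against 214, 209.8 and 294 on the 2-cell arrays. They rose by 3.50 ± 0.21 and 3.27 ± 0.18. Cyc1, the cytochrome of complex III, rose by 3.20 ± 0.18, though its other tested probe set was called lower (-0.53 ± 0.17).

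Tissue-specific subunits were among the falls. Cox6b2, the testis form of a cytochrome oxidase subunit, had 44.5, 55.4, 43 and 23.7 on the 8-cell arrays, against 493, 406 and 246 on the 2-cell arrays. Cox6a2, the muscle form of another subunit, had 17.2, 47.8, 52.1 and 33 on the 8-cell arrays, against 125, 109 and 96.2 on the 2-cell arrays. They fell by 2.88 ± 0.24 and 1.38 ± 0.29. Of 57 mitochondrial ribosomal proteins 40 rose and 2 fell (20 higher and 4 lower on the spike scale), with Mrpl36 at 2.64 ± 0.24 and Mrpl48 at -1.24 ± 0.16. Tomm70a, the receptor that takes carrier proteins into mitochondria, rose by 3.94 ± 0.29, and by 1.47 ± 0.24 at its other probe set.

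Glucose and pyruvate genes were called in both directions. Of 29 measured, 9 rose (31%, against 26.2% of all genes), 12 fell (41.4%, against 29.6%) and 8 were not called. On the spike scale 4 were higher and 15 lower. Hk2, the hexokinase that traps glucose, had 153, 226, 286 and 435 on the 8-cell arrays, against 28.9, 58.8 and 40.6 on the 2-cell arrays, and blastocysts averaged 1685. Pdha1, of the complex that feeds pyruvate to the citric acid cycle, had 1339, 1626, 2035 and 2610.5 on the 8-cell arrays, against 289.6, 213 and 217 on the 2-cell arrays. Both rose, by 2.35 ± 0.31 and 2.90 ± 0.22, while Dlat (-0.12 ± 0.19) and Dld (0.21 ± 0.18), of the same complex as Pdha1, were not called. The pentose phosphate enzymes Tkt and Taldo1 rose by 2.88 ± 0.34 and 1.56 ± 0.19.

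Among the falls were both lactate dehydrogenases named here. Ldhb, the lactate dehydrogenase of the egg, had 149, 112, 122 and 73.6 on the 8-cell arrays, against 2709.6, 1379 and 1070.4 on the 2-cell arrays, and Ldha, the muscle form, had 18.9, 44, 81.7 and 34.6 on the 8-cell arrays, against 445, 515 and 331 on the 2-cell arrays. They fell by 3.71 ± 0.26 and 3.08 ± 0.36. Pkm, pyruvate kinase, fell by 2.79 ± 0.21, and Pdk1, a kinase that inhibits the pyruvate dehydrogenase complex, by 2.47 ± 0.27. The glucose transporter Slc2a1 was dim at 4.3 to 7.6 on 8-cell and 12.7 to 37.2 on 2-cell arrays and fell by 0.94 ± 0.28, a call lost without 2-cell array 2 (-0.67). Gapdh control probe sets, which were not tested, differed by -2.50 at the 3′ end, -1.73 in the middle and -0.90 at the 5′ end.

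Some enzymes moved against a relative of the same activity, in pairs that were set side by side after their values were seen. Fbp2, the muscle form of fructose bisphosphatase in gluconeogenesis, had 865, 957, 985 and 969.6 on the 8-cell arrays, against 17.2, 4.7 and 2.5 on the 2-cell arrays. Fbp1, the liver form, had 7.3, 13.5, 4.9 and 6.7 on the 8-cell arrays, against 317, 198 and 113 on the 2-cell arrays. The pair changed by 5.72 ± 0.26 and -3.44 ± 0.24, and neither overlapped between the stages.

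Arginases formed another pair. Arg1, the cytosolic enzyme that makes ornithine, had 609.6, 382, 622 and 685 on the 8-cell arrays, against 102, 116 and 97.2 on the 2-cell arrays. Arg2, the mitochondrial enzyme, had 29.2, 14, 24.8 and 12.9 on the 8-cell arrays, against 695, 535 and 291 on the 2-cell arrays. They changed by 2.30 ± 0.25 and -4.00 ± 0.27, and Arg1 averaged 7.77 in blastocysts. Odc1, which turns ornithine into the polyamine putrescine, rose by 1.69 ± 0.19.

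The last pair was that of the catalytic ATPases of the SWI/SNF chromatin remodeller. Smarca2 (BRM) had 20.3, 9.1, 24.3 and 26.5 on the 8-cell arrays, against 1121, 1159.8 and 742 on the 2-cell arrays. Smarca4 (BRG1), which was named after its value was seen, had 778, 654, 706 and 854 on the 8-cell arrays, against 299, 386 and 467 on the 2-cell arrays. The changes were -5.05 ± 0.22 and 0.96 ± 0.17 (0.32 and not called on the spike scale for Smarca4). Each member was compared only with itself, since levels of different probe sets are not comparable.

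**Figure D5:**
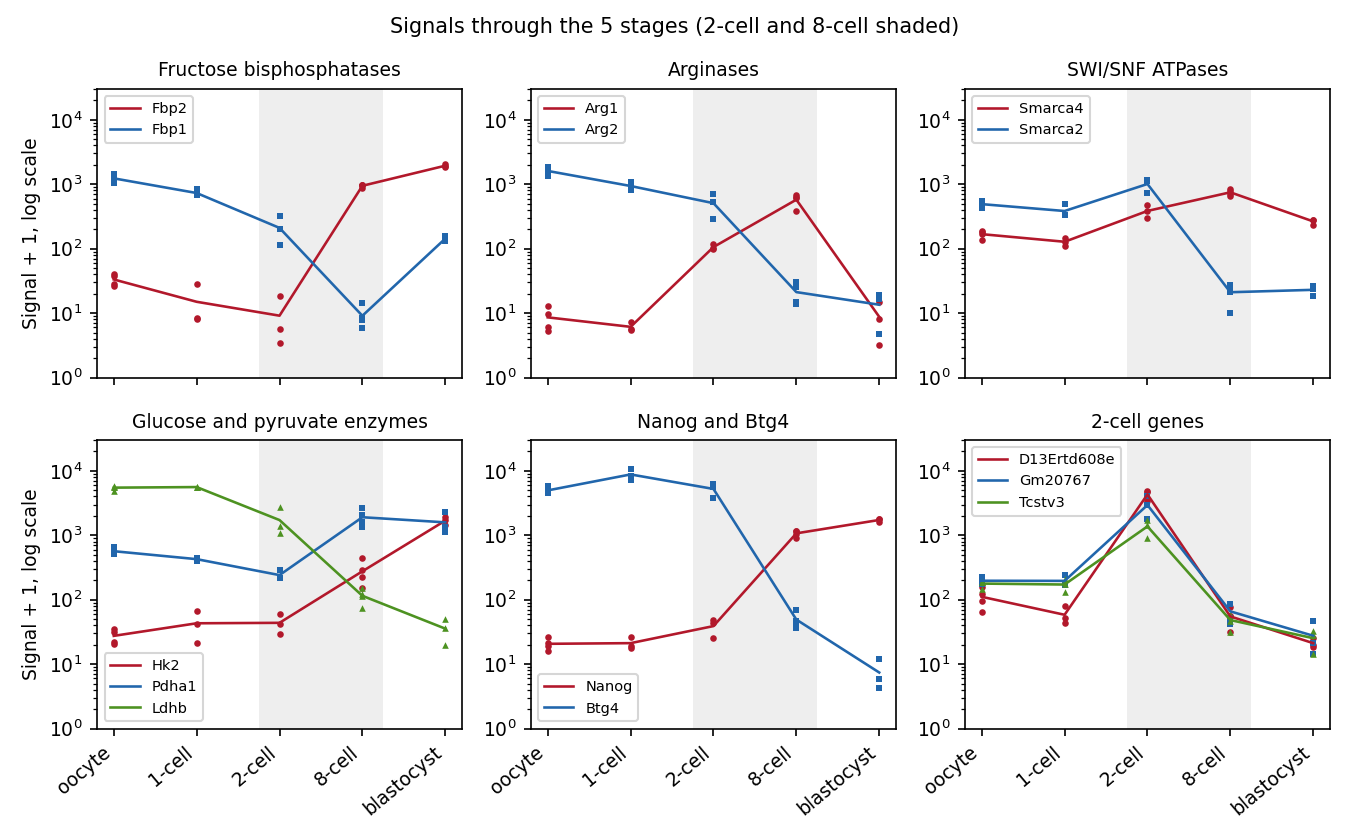
Signal + 1 (log scale) of selected genes on every array of the 5 stages in order of development, with points for arrays, lines through the stage means and the 2-cell and 8-cell stages shaded. Fbp2, Arg1 and Smarca4 are higher and Fbp1, Arg2 and Smarca2 lower at the 8-cell than at the 2-cell stage, and D13Ertd608e, Gm20767 and Tcstv3 peak at the 2-cell stage.

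Proteasome genes rose and ubiquitin genes fell in larger numbers. Of 42 proteasome subunits and assembly factors, 32 rose, 5 fell and 5 were not called (median 1.35), while of 88 ubiquitin genes 18 rose, 39 fell and 31 were not called (median -0.31). On the spike scale 20 proteasome genes were higher and 5 lower, and 6 ubiquitin genes were higher and 50 lower. Psmg2, an assembly chaperone of the core, had 155, 139, 175 and 130.5 on the 8-cell arrays, against 16.1, 5.0 and 1.5 on the 2-cell arrays. Psmc3, an ATPase of the cap, had 512, 458, 505 and 646 on the 8-cell arrays, against 61.9, 61.9 and 99.3 on the 2-cell arrays. They rose by 3.19 ± 0.25 and 2.68 ± 0.23.

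Genes of the alternative caps were called in both directions. Psme1, of the PA28 activator, had 118, 95.4, 126 and 149 on the 8-cell arrays, against 14.2, 3.5 and 4.7 on the 2-cell arrays, and rose by 2.88 ± 0.32. Psme4, the PA200 activator, had 172, 244, 189 and 202 on the 8-cell arrays, against 1629, 1734 and 1514 on the 2-cell arrays, and fell by 2.95 ± 0.16. Psme3, the nuclear PA28 gamma, fell by 1.16 ± 0.19.

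Among ubiquitin genes, the ligase gene Rnf141 had 270.0, 319, 284 and 357 on the 8-cell arrays, against 4259, 5797 and 5446 on the 2-cell arrays, and the F-box gene Fbxw4 had 51.6, 24.6, 17.7 and 26 on the 8-cell arrays, against 882, 766 and 422 on the 2-cell arrays. Ube2d2a, a conjugating enzyme used by many ligases, had 164, 186, 151 and 203 on the 8-cell arrays, against 1797, 2073 and 2483 on the 2-cell arrays. Their changes were -4.02 ± 0.17, -4.09 ± 0.26 and -3.51 ± 0.17. The deubiquitinase Usp14, which works on the proteasome, rose by 2.13 ± 0.18, and the deubiquitinase Usp48 by 2.00 ± 0.14.

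Chaperones rose in 19 of 37 cases and fell in 8 (10 higher and 10 lower on the spike scale). Hspa8, the constitutive HSC70, had 7924, 10025, 6702 and 7185 on the 8-cell arrays, against 654, 649 and 1213 on the 2-cell arrays, and rose by 3.28 ± 0.20. The chaperonin subunits Cct7 and Cct5, which help actin and tubulin fold, rose by 2.59 ± 0.16 and 2.53 ± 0.18. Of 62 genes of lysosomes and endocytosis, 23 rose (37.1%, against 26.2% of all genes) and 15 fell (24.2%, against 29.6%). On the spike scale 13 were higher and 24 lower. Cathepsin Z (Ctsz) had 498, 639, 480.2 and 969.5 on the 8-cell arrays, against 54.7, 45.5 and 114 on the 2-cell arrays, and cathepsin A (Ctsa) had 1409, 1489, 1531 and 1969 on the 8-cell arrays, against 107, 203 and 372 on the 2-cell arrays. They rose by 3.03 ± 0.27 and 2.91 ± 0.26, and the lysosomal membrane protein Lamp2 by 2.42 ± 0.26, though another probe set of Lamp2 was not called (0.04 ± 0.32). In blastocysts these 3 genes averaged 74.3, 403 and 196. Cathepsin S (Ctss), Ap2s1 and Ap1m1 were among the falls of the list, and cathepsin L (Ctsl) was not called. For Ctss the third 8-cell array, also the high one for Id2, was far above the rest of its group but below the 2-cell arrays.

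Cell cycle genes fell more often than they rose. Of 56 measured, 23 fell (41.1%, against 29.6% of all genes), 14 rose (25%, against 26.2%) and 19 were not called. On the spike scale 29 were lower and 3 higher. E2f5, a repressor of the E2F family, had 67.7, 89.8, 59.8 and 76.4 on the 8-cell arrays, against 2890.2, 2629.6 and 1727 on the 2-cell arrays. Rb1, the pocket protein that restrains entry into S phase, had 30.6, 14.3, 0.9 and 6.6 on the 8-cell arrays, against 240.4, 224 and 182 on the 2-cell arrays. They fell by 4.82 ± 0.17 and 3.38 ± 0.29, and Ccng2, a cyclin of arrested cells, fell by 4.56 ± 0.22.

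Kinases and regulators of mitosis were among the falls. Ttk, of the spindle checkpoint, had 127, 188, 238 and 218 on the 8-cell arrays, against 1446, 1368 and 996 on the 2-cell arrays, and Plk4, which starts centriole duplication, had 292, 247, 422 and 301 on the 8-cell arrays, against 2318, 2146 and 1316 on the 2-cell arrays. They fell by 2.67 ± 0.19 and 2.55 ± 0.21, and Pttg1, the securin that holds back separase, by 2.36 ± 0.19. Rises were those of Cdk4, the kinase of D-type cyclins, with 892, 829, 889 and 833 on the 8-cell arrays, against 224, 264 and 305 on the 2-cell arrays, a change of 1.67 ± 0.16, of the phosphatase Cdc25a, which activates cyclin-dependent kinases (1.48 ± 0.25), and of Wee1, which inhibits them (1.65 ± 0.33). Cdk1, the mitotic kinase itself, had 3855, 3006, 3212 and 3324 on the 8-cell arrays, against 3051, 3476 and 3132 on the 2-cell arrays and was not called (0.05 ± 0.19), though with quantile normalization it was called lower (-0.57).

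DNA replication genes were called in both directions, in shares near those of all genes. Of 39 measured, 13 rose and 10 fell (33.3% and 25.6%, against 26.2% and 29.6% of all genes, and 5 higher and 12 lower on the spike scale). Orc5, of the origin recognition complex, had 95.6, 108, 113 and 185 on the 8-cell arrays, against 1529, 1183 and 683 on the 2-cell arrays, and fell by 3.03 ± 0.23, while Orc1 fell by 1.21 ± 0.15. Cdc6, which loads the helicase at origins, had 1715, 1649.7, 2234 and 2519.5 on the 8-cell arrays, against 674, 710.1 and 736 on the 2-cell arrays, and rose by 1.49 ± 0.19. Pold1, the catalytic subunit of polymerase delta, rose by 1.92 ± 0.25, though its other probe set was not called (-0.50 ± 0.26). Rfc4, of the clamp loader, rose by 2.12 ± 0.33, while Rfc5, of the same complex and named after its value was seen, fell by 1 probe set (-1.24 ± 0.17) and was not called by the other (-0.12 ± 0.23).

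Among 56 chromatin genes, 18 fell, 12 rose and 26 were not called, shares near the 29.6% and 26.2% of all genes (24 lower and 6 higher on the spike scale). The Polycomb genes Bmi1 and Cbx2 fell. Bmi1 had 1191, 1127, 1648 and 977 on the 8-cell arrays, against 7836, 10284 and 10823 on the 2-cell arrays. Cbx2 had 4.0, 6.3, 13 and 5.2 on the 8-cell arrays, against 198, 169 and 229 on the 2-cell arrays, and its second probe set was not called (-0.43). They fell by 2.97 ± 0.22 and 3.55 ± 0.25.

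Uhrf1 and Dnmt1 were other falls. Uhrf1, which brings the maintenance methyltransferase to new DNA, had 22.1, 23.8, 67.8 and 127 on the 8-cell arrays, against 598, 620.0 and 499 on the 2-cell arrays, with a wide spread among 8-cell arrays. It fell by 3.29 ± 0.36. Dnmt1, that methyltransferase, fell by 1.08 ± 0.17, though its other probe set was not called (0.28 ± 0.32), nor was the average of both (-0.40). Kdm6a, a demethylase of the Polycomb mark, fell by 2.21 ± 0.15.

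Chromatin genes that rose included Hmga2, a DNA-bending protein of embryonic cells, with 318, 323, 289.7 and 242 on the 8-cell arrays, against 30, 36 and 27.6 on the 2-cell arrays. Nap1l1, a histone chaperone, had 1310.2, 1565, 1199.5 and 1526 on the 8-cell arrays, against 232, 223 and 193 on the 2-cell arrays. Both were clear of their 2-cell arrays, with changes of 2.85 ± 0.26 and 2.63 ± 0.16, though the other probe set of Nap1l1 overlapped and was not called (0.06 ± 0.18). Trim28, a corepressor of retrotransposons, rose by 1.80 ± 0.21, the arginine methyltransferase Prmt1 by 1.62 ± 0.18 and Ehmt2 (G9a), a histone methyltransferase, by 1.47 ± 0.23.

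Of 28 genes of cell death and the p53 response, 11 fell and 5 rose (14 lower and 1 higher on the spike scale). Mdm2, the ligase that degrades p53, had 149.8, 156, 129.7 and 126 on the 8-cell arrays, against 396, 459 and 416 on the 2-cell arrays, and fell by 1.53 ± 0.18. Cdkn1a, the p21 target of p53, had 469.7, 456, 348 and 341 on the 8-cell arrays, against 223, 189.5 and 233 on the 2-cell arrays, and rose by 0.86 ± 0.23, a call that the spike scaling ended (0.23). Mcl1, a survival protein, rose by 1.31 ± 0.20 (0.67 and not called on the spike scale), while the inhibitors of apoptosis Birc3 and Birc5 fell by 1.74 ± 0.21 and 1.58 ± 0.21.

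Genes of growth factor signalling fell more often than they rose, with 19 of 48 genes lower and 10 higher (25 lower and 3 higher on the spike scale). Among ligands, Vegfa fell by 1.84 ± 0.27. Pdgfa rose by 1.20 ± 0.22 (0.58 and not called on the spike scale). Among receptors, Egfr had 9.2, 6.5, 14.4 and 14.7 on the 8-cell arrays, against 464, 362 and 269.9 on the 2-cell arrays, and fell by 4.07 ± 0.22. Fgfr2, the FGF receptor of the later trophectoderm, had 243, 329, 339.6 and 492 on the 8-cell arrays, against 86.8, 121 and 107 on the 2-cell arrays, and rose by 1.61 ± 0.23. Another probe set of Fgfr2 also rose (1.55 ± 0.22), and a further one was not called (-0.06 ± 0.27). Igf2r, which clears insulin-like growth factor II, rose by 1.26 ± 0.24 (0.62 and not called on the spike scale).

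Some bright genes were close to even between the stages. The prefoldin subunit Vbp1 had 1140.2, 1202, 1379.5 and 1219.5 on the 8-cell arrays, against 1297, 1318 and 1097 on the 2-cell arrays, and the microtubule end protein Mapre1 had 1836, 2175, 1993 and 1539.5 on the 8-cell arrays, against 2648, 1817 and 1358 on the 2-cell arrays. Arpc2, of the Arp2/3 complex, had 3253, 3618, 2818 and 2914 on the 8-cell arrays, against 3436, 3660.2 and 2936 on the 2-cell arrays. Their arrays overlapped, with changes of 0.00 ± 0.14, 0.00 ± 0.19 and -0.09 ± 0.19, though Arpc2 was called lower on the spike scale (-0.73) and with quantile normalization (-0.71). Probe sets of a gene did not always move together, since 46 of the 1032 genes with more than 1 tested probe set had some called in opposite directions. Adam10, a membrane protease, was such a case, with 0.80 ± 0.21 at the brighter probe set, which stood for the gene (0.22 and not called on the spike scale), -2.46 ± 0.24 at the other and -0.83 as their mean.

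Oviduct markers were uneven among the 8-cell arrays. Of 14 measured oviduct and uterus markers, 5 fell (35.7%, against 29.6% of all genes) and 9 were not called (8 lower on the spike scale). Ovgp1, the glycoprotein that the oviduct secretes onto embryos, had 107, 6212, 114 and 43.1 on the 8-cell arrays, against 1272, 715 and 688 on the 2-cell arrays. Ltf, the secreted lactotransferrin, had 11.4, 828, 10.4 and 6.0 on the 8-cell arrays, against 291, 171 and 167 on the 2-cell arrays. In both genes the second 8-cell array was above all 2-cell arrays and the other 3 were below them. Ovgp1 was not called (-1.71 ± 0.93, adjusted p = 0.129) and Ltf was, narrowly (-2.06 ± 0.85, adjusted p = 0.0464), and without that array the changes were -3.23 (adjusted p = 6.28e-08) and -3.41 (adjusted p = 2.43e-07). Ovgp1 was also called lower on the spike scale (-2.28). The call of Ltf was lost without any one of the other 6 arrays (-1.53 to -2.20) and also with quantile normalization (-2.04), median centring (-1.93), the offset at the median (-1.26), array weights (-1.77) and the replicate block (-1.76), and with no filter, no intensity trend or the 7 arrays alone (-2.06 each). Dcn, or decorin, of the same list had 29.4, 16.6, 123 and 28.5 on the 8-cell arrays, against 122, 77.1 and 68.9 on the 2-cell arrays, with the third 8-cell array apart, which was also the high one for Id2 above. Its change of -0.99 ± 0.38 (adjusted p = 0.0334, limma) was no longer called without any one of 5 of the 7 arrays, with quantile normalization, with median centring, with array weights, with the replicate block, with no filter or with the 7 arrays alone (-0.71 to -1.06). The summed signal of the list was 824 to 8047 on 8-cell arrays and 1896 to 2671 on 2-cell arrays.

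The counts over all probe sets without the second 8-cell array were 1978 higher and 2205 lower, and the egg, pluripotency and ribosomal lists had 24 lower, 16 higher and 22 higher. Of the oviduct list 5 were lower without it. Sperm markers fell in 4 of 7 cases (57.1%, against 29.6% of all genes, and 6 on the spike scale), with Odf2, a protein of sperm tails and centrosomes, at -3.15 ± 0.22. Blood markers fell in 2 of 10 cases (20%, a smaller share than that of all genes, and 3 on the spike scale). The 3 cumulus cell markers were not called. Summed over the list, sperm markers were at 301 to 472 on 8-cell and 924 to 1124 on 2-cell arrays, and blood markers at 615 to 987 and 863 to 1002. The part of other cells in the results above was not tested.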

How the data were processed

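The deposited table gave 1 intensity per probe set and array on a linear scale, and its software and scaling target are not given in the sources used here. In the values, the mean of each array with the outer 2% of probe sets trimmed at either end lay between 150.097 and 150.133, so the authors had scaled the arrays alike, and no detection calls were used here. Of 12488 probe sets, 66 were controls and were left out of the tests. A probe set was kept if 3 or more of the 17 arrays exceeded 41.1, the overall median.

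Values were taken as log2(intensity + 11), where 11 is the 25th percentile of all values rounded up. One mean per stage was fitted to all 17 arrays with limma 3.58.1 in R 4.3.3 (lmFit, then eBayes with an intensity trend), so that the 5 stages shared 1 estimate of the spread with 12 residual degrees of freedom, and p-values of the 8-cell minus 2-cell contrast were adjusted by Benjamini-Hochberg over 8067 probe sets. The procedure was also run on simulated data with independent normal noise and far fewer changed probe sets than were called here. That run does not cover differences in array scaling or single outlying arrays. Genes were named from the platform's annotation: of the probe sets that were not controls, 10833 had 1 symbol, 396 several and 1193 none. The tested probe set with the highest mean signal and 1 symbol stood for a gene.

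The gene lists and their members were chosen with earlier results of these data known, and so were the rules for naming genes. A gene was named if it was among the 20 largest rises or falls without overlap of arrays, the 6 largest changes either way or the 3 brightest not called of a list, the 15 brightest of either stage or of the genes switched on or off, the 10 brightest with a change under 0.1, a landmark, or a gene with probe sets called in opposite directions. Probe sets whose names end in _f_at, _s_at, _r_at, _i_at or _g_at can share probes with other transcripts. Promoters came from RefSeq's table and were searched with Python 3.11.15 and pandas 2.3.3, and figures were drawn with matplotlib 3.10.9. Arrays give no counts, so the number of arrays limits the precision. Alternatives were the scaling, the offset, the filter, the variance model, the samples in the fit, the probe sets per gene, the replicate number as a block and each array left out in turn. Deviations of same-numbered arrays from their stage means correlated at -0.03, -0.004 and 0.011, so arrays were not treated as pairs. These values cannot show whether same-numbered samples were collected or processed together.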

Additional observations from a re-analysis of the deposited data

Results flagged for a closer look

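In 9 of the 209 genes named with values, 1 of the 4 8-cell arrays was far from the other 3, by Dixon's test on the log2 scale at the 95% level. Chance flags about 1 group in 20. The first 8-cell array was the low one for Actg1 (3604.5, against 4285 on average) and for Rragd (349.7). The second was the high one for Ltf (827.7) and Figla (31.2) and the low one for Ehmt2 (141.4). The third was the high one for Tomm70a (1002.0), and the fourth the low one for Klf2 (45.8), Pdgfa (205.8) and Rfc4 (126.2). The causes were not tested.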

How the results depend on the processing

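On the spike scale 840 probe sets were called higher, 633 were higher and 2519 lower by at least 2-fold, 12 genes were switched on and 10 of the 36 lists had a median above 0. With the 25th percentile as the lower bound 1 gene was switched on and 7 off, 8 together. The other alternatives kept each count within 1.5 times its value. With each array left out in turn, 3907 to 4269 probe sets were called, 1849 to 2055 higher and 2028 to 2269 lower. At 2-fold or more they were 1243 to 1392 and 1426 to 1557, and lists with a median above 0 were 18 to 21. Genes switched on were 36 to 51, switched off 67 to 86 and together 104 to 137. The counts of switched genes cannot fall when an array is left out, since the rule needs every array to pass. With the replicate number as a block, 4241 probe sets were called, 2038 higher and 2203 lower, against 4364 without it. Of the 209 genes named with values, 3 changed direction, Cdk1 (-0.57) and Dppa3 (-0.73) with quantile normalization and Adam10 (-0.83) as the mean of its probe sets, and the cause was not tested. With no detection calls, changes of genes near or below 11, the offset, are limited by background.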

Other observations

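Other metabolic lists were mixed. Of 24 genes of nucleotide synthesis, 11 rose and 8 fell, with a median of 0.14 that was -0.50 on the spike scale, where 8 were higher and 9 lower. Nme1, a nucleoside diphosphate kinase, had 493, 484, 581 and 839.7 on the 8-cell arrays, against 33, 42.3 and 75.5 on the 2-cell arrays. It rose by 3.34 ± 0.23, and by 1.06 ± 0.35 at its other probe set, where the arrays overlapped. Ppat, the first enzyme of purine synthesis, rose by 2.26 ± 0.29, and Cad, which starts pyrimidine synthesis, by 1.86 ± 0.30. Mthfd2, a mitochondrial folate enzyme, had 214, 462, 544 and 499.5 on the 8-cell arrays, against 2834, 2421 and 1633 on the 2-cell arrays, and fell by 2.43 ± 0.24, though its other probe set was not called (-0.76 ± 0.39). Adss, on the way to adenylate, fell by 2.07 ± 0.22. Of 17 genes of polyamines and amino acids, 9 rose and 3 fell (median 0.60, with 6 higher and 3 lower on the spike scale), with the branched-chain aminotransferase Bcat1 at 1.82 ± 0.18 and the ornithine aminotransferase Oat at -2.18 ± 0.19.

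Cholesterol synthesis genes moved both ways. Of 17 genes, 7 fell (41.2%, against 29.6% of all genes) and 4 rose (23.5%, against 26.2%). The median was -0.28, with 2 higher and 8 lower on the spike scale. Hmgcs1, an early enzyme, had 109, 194, 173 and 200.4 on the 8-cell arrays, against 789.6, 809.5 and 553 on the 2-cell arrays, and fell by 2.03 ± 0.20. Msmo1, a late one, had 330.1, 444, 428 and 394 on the 8-cell arrays, against 82.8, 61.3 and 48.1 on the 2-cell arrays, and rose by 2.47 ± 0.25. Of 9 genes of iron and retinoids 4 rose and 4 fell (median -0.28, with 1 higher and 5 lower on the spike scale), with Ireb2, an iron sensor, at -1.83 ± 0.15. Of 15 imprinted genes 8 fell and 2 rose (median -0.56, with 10 lower on the spike scale). Mest had 34.6, 16.6, 3.3 and 15.1 on the 8-cell arrays, against 278, 300.3 and 181 on the 2-cell arrays, and fell by 3.30 ± 0.29, and the growth-restraining Phlda2 fell by 2.02 ± 0.25.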
